A study of Mus musculus with 6 samples.

Results

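The contractile machinery of skeletal muscle was followed here through 57 genes of the sarcomere and of excitation and contraction, taken by gene symbol from the 17830 genes of the count table, and each of the 57 symbols had a row. They were sorted by role into 17 genes of the thick filament and M-band, 13 of the thin filament, 9 of the Z-disc together with titin, 9 of calcium handling, 5 assembly factors and 4 of energy supply. The measurement was bulk RNA-seq of cells grown out of skull bone chips from 6-month-old mice and sorted by flow cytometry for the red reporter tdTomato. Control libraries (n = 3) came from mOCN-Cre; Ai9 mice and APPswe libraries (n = 3) from TgAPPswemOCN-Cre; Ai9 mice. Both genotypes carried Cre, knocked in at the end of the endogenous osteocalcin gene Bglap, and the Ai9 allele, which gives tdTomato in cells in which Cre has acted and in their descendants. The APPswe mice carried in addition a human APP695 transgene with the Swedish mutation, driven by the CAG promoter behind a loxP-flanked stop, and all lines were on a C57BL/6J background. The labels do not say whether the libraries of a group came from separate animals or cultures, so the p-values measure the spread between these libraries, which may be technical.

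A sarcomere is the repeating contractile unit of striated muscle. Myosin of the thick filaments pulls on actin of the thin filaments, titin and the Z-disc hold both in register, and calcium released from the sarcoplasmic reticulum acts through troponin and tropomyosin to let the filaments interact. Many of these proteins come in isoforms from separate genes that are used in fast fibers, in slow fibers or during development and regeneration, and the heart and smooth muscle share some of them. These genes are not part of the osteoblast program, although a few, such as Tpm2 and Myl4, are also used outside striated muscle. CPM is the read count of a gene scaled to the total of its library, and FPKM is the authors' level per length of transcript, the scale used below to rank and share out the members. Read counts of different genes, which also grow with transcript length, are named as counts.

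Total counts ran from 17263757 to 18398392 per library, so that 3 counts, taken as the floor, corresponded to 0.167 to 0.173 CPM. Control replicate 2 stood apart from the other libraries. It had 1 count of Bglap against 115 to 204 elsewhere, and 2 counts over 4 Y-linked genes against 2257 to 3406. Of the endothelial genes Pecam1 and Cdh5 it had 1 and 6 counts, against 827 to 1126 in control replicates 1 and 3. The APPswe libraries were low for these too, with 31 to 54 counts of Pecam1 and 22 to 32 of Cdh5. The endothelial genes Kdr and Vwf were highest in control replicate 2, at 453 and 979 counts. The study gives male mice as the source of these cells. The Y-linked counts of this library go against that description. Osteoblast collagen Col1a1 was abundant in all libraries, at 63949 to 101492 counts, and so was the macrophage gene Lyz2, at 127493 to 284993 counts. The count of members called is therefore given with and without control replicate 2, over all members and for each class and isoform list. The endogenous mouse App gene was not called, with a log2 fold change of -0.11 ± 0.11 (SE), and the human transgene was not measured separately.

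In APPswe libraries the muscle genes were higher across every class. Of the 57 members, 49 passed the filter on low counts, 42 were called higher and 0 lower, a call being a Benjamini-Hochberg adjusted p of at most 0.05 and a log2 fold change of at least 1 in either direction by edgeR's quasi-likelihood test. Over all 13484 genes tested, 3.74% were called higher and 3.60% lower. The median log2 fold change was 3.99 over the 49 members tested, against -0.0033 over all genes tested. The 3 APPswe libraries lay above all 3 control libraries for 47 of the 49 members, where 22.8% of all genes tested did so. Of these 49, 35 passed the filter through the APPswe libraries alone and so had to differ, and their counts are a description. By class they were 9 of the thick filament and M-band, 7 of the thin filament and 6 of the Z-disc with titin. Calcium handling held 7 more, the assembly factors 4 and energy supply 2. The other 14 had enough reads in both groups, and 10 of them were called higher. At an unadjusted p under 0.05, 1 member was lower, Jph2, and DESeq2 also called 0 lower.

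**Figure D1:**
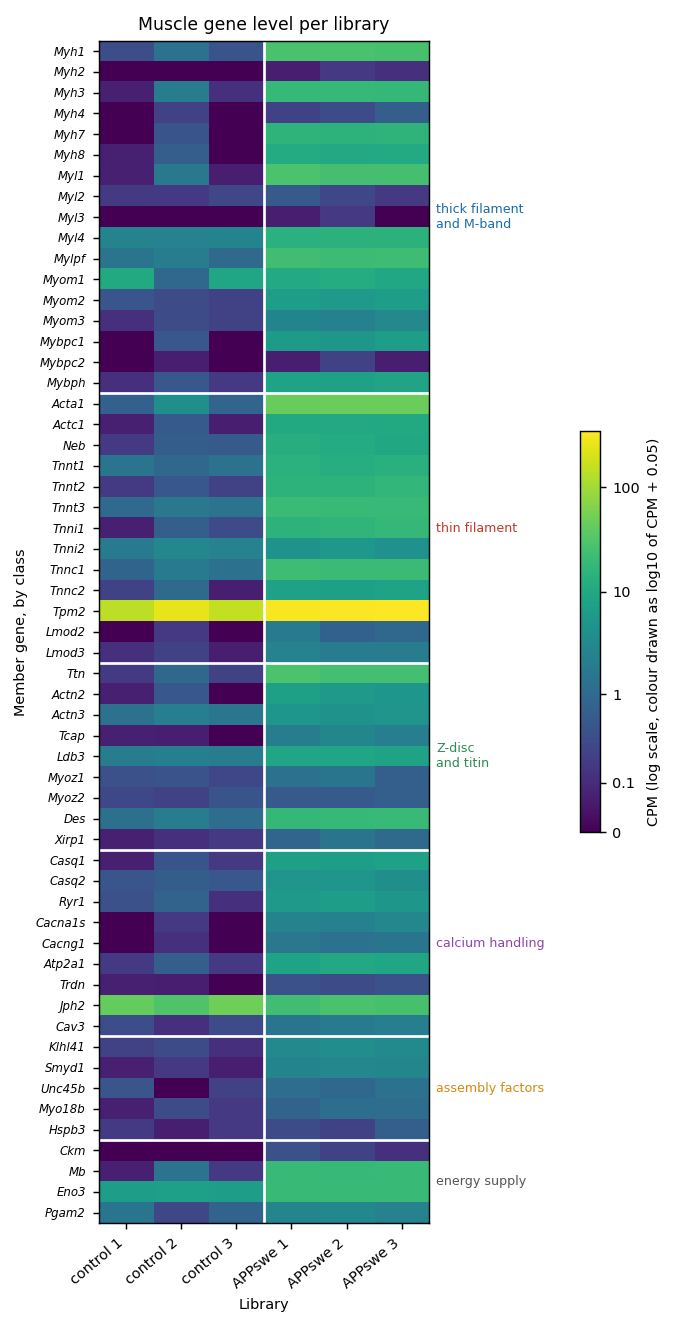
Level of the 57 members (rows, by class) in each of the 6 libraries (columns), as CPM on a log color scale. The rows brighten from control to APPswe in every class, and the few that are bright in both groups, Tpm2, Jph2, Eno3 and Myom1, stand out.

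Without control replicate 2, 46 members were called higher and 0 lower, beside 4.87% and 6.58% of the 13753 genes then tested. The 42 calls were all kept and Tnni2, Tpm2, Unc45b and Pgam2 were added. Control replicate 2 had the highest control level in 40 of the 57 members. Summed over the 53 members other than Tpm2, Jph2, Eno3 and Myom1, the level was 21.7, 42.1 and 22.6 CPM in control replicates 1, 2 and 3. The same sum was 470, 455 and 460 CPM in APPswe replicates 1, 2 and 3, so the lowest APPswe library was far above the highest control. Over the 57 members the median level in control replicate 2 was 8.77% of the APPswe mean, against 3.82% and 2.28% in control replicates 1 and 3. Because these are sums over all sorted cells, fewer cells that express a gene and less RNA per cell cannot be told apart. The libraries were named in a pair of styles, one for control replicates 1 and 2 and APPswe replicate 1 and the other for the rest. Within either style the APPswe libraries were above the controls for 48 of the 49 members tested and for all 42 called. The filter and the calls used these same libraries, so this order was largely given and is a description. The share over all genes was not computed.

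**Figure D2:**
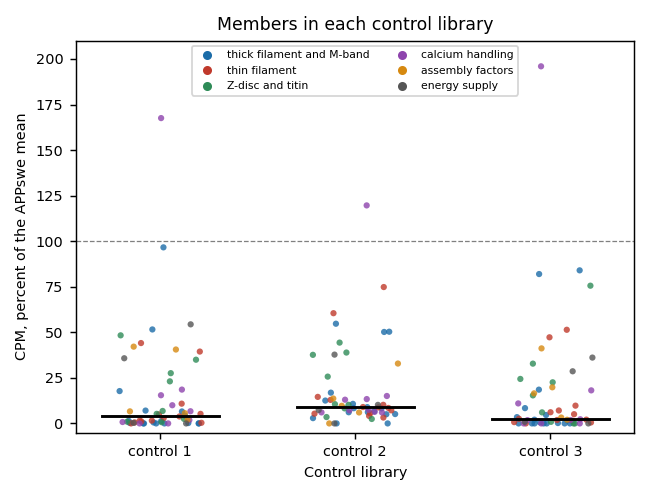
Each member's CPM in a control library as a percent of its mean over the 3 APPswe libraries. Points are members colored by class, the black line is the median (3.82%, 8.77% and 2.28%) and the dashed line marks 100%. Jph2 is the point above 100% in all 3 libraries.

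The sequences just upstream of the genes are shown because the members moved together and the myogenic factors that bind such sequences are described below. The E-box CANNTG is the core sequence bound by MyoD-family factors, MEF2 sites are bound by MEF2 factors, and CArG boxes by serum response factor. RefSeq promoters of mouse build GRCm38.p6 were matched by symbol to 45 members, which had 53 promoters. In the 250 bases upstream of the start, CANNTG was present in 84.9% of these 53 promoters and in 66.2% of all 32851 promoters. Its form CAGCTG, which is counted within CANNTG too, was present in 45.3% against 13.0%, a MEF2 site in 18.9% against 2.92% and a CArG box in 13.2% against 1.47%. TATAAA, read on the strand of the gene, was present in 11.3% against 7.59%, and the other 4 motifs read the same on both strands. Among the 38 promoters of called members, CAGCTG was present in 42.1% and a MEF2 site in 15.8%. These shares describe letters and are not evidence of binding. Below are the 250 bases upstream of the start in the called member with the highest APPswe FPKM in each of 4 classes, with CANNTG and MEF2 sites in capitals. The window of Mylpf lies inside the gene as annotated (127208848 to 127214288), so its start is an inner one.
Mylpf, chr7:127211358-127211607, plus strand: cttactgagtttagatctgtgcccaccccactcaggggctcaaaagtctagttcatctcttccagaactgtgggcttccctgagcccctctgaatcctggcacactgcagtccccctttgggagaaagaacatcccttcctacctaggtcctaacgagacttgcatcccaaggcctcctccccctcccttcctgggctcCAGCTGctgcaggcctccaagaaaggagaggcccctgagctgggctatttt
Tnnc1, chr14:31208062-31208311, plus strand: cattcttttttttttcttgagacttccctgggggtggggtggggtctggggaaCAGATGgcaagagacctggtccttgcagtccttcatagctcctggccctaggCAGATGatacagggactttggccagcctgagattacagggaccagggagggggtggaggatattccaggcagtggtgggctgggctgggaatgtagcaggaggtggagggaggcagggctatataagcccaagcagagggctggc
Des, chr1:75360042-75360291, plus strand: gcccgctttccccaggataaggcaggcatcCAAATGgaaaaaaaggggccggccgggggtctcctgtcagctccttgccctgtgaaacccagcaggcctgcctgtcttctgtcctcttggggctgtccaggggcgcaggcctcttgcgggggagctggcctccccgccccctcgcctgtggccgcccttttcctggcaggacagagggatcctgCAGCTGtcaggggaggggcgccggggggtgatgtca
Casq1, chr1:172219896-172220145, minus strand: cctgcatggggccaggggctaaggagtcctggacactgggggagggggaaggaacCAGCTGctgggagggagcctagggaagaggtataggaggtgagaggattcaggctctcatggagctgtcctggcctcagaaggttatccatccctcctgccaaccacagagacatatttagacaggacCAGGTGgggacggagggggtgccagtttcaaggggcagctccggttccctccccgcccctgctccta

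Counted from the start, CAGCTG began at -51 in Mylpf, at -36 in Des and at -195 in Casq1, while the CANNTG matches of Tnnc1, at -197 and -145, were of another form. The 5 myosin heavy chain genes of the chromosome 11 cluster are shown next, in their order along the chromosome, because neighbors in the cluster differed so widely in level. Myh3 (67078273 to 67102291), Myh2 (67171027 to 67197517), Myh1 (67200102 to 67224577), Myh4 (67237812 to 67260447) and Myh8 (67277124 to 67308634) all lie on the plus strand. The 100 bases upstream are printed, and that of Myh3 reaches into the first bases of the gene as annotated because a transcript starts further in.
Myh3, chr11:67078200-67078299, plus strand: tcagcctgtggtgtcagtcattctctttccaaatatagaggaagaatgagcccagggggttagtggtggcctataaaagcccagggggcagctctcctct
Myh2, chr11:67170927-67171026, plus strand: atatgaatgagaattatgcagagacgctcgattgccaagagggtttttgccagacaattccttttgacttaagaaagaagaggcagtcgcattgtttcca
Myh1, chr11:67200002-67200101, plus strand: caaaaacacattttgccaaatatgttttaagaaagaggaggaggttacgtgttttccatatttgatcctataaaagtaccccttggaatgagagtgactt
Myh4, chr11:67237712-67237811, plus strand: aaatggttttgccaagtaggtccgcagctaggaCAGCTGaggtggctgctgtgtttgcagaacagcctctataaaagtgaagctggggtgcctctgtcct
Myh8, chr11:67277024-67277123, plus strand: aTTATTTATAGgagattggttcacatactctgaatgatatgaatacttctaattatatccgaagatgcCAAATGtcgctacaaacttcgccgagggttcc

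TATAAA lay at -29 in Myh3, -32 in Myh1 and -31 in Myh4, and was not in these windows of Myh2 and Myh8. A CAGCTG lay at -67 in Myh4, and in the window of Myh8 a MEF2 site lay at -99 and another CANNTG at -32.

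Myosin heavy chains are the motor proteins of the thick filament, and 4 of the 6 on the list were called higher. The thick filament and M-band class as a whole had 11 of 17 called, with or without control replicate 2. Of these 11, 9 passed the filter through the APPswe libraries alone, the 4 heavy chains among them, so their calls are a description. Counts are given throughout in the order of replicates 1, 2 and 3. Myh1, the fast chain of type IIx fibers, had 6, 24 and 8 counts in control and 489, 478 and 468 in APPswe, with a log2 fold change of 5.21 ± 0.41 (SE, adjusted p = 0.00083). Myh3, the embryonic chain, had 1, 35 and 2 counts in control and 330, 332 and 320 in APPswe, with a log2 fold change of 4.66 ± 0.85 (adjusted p = 0.0113). The APPswe libraries were nearly level with each other, while control replicate 2 held most of the control reads. Without that library the log2 fold change of Myh3 was 7.63 ± 0.24, and leaving out any 1 APPswe library instead ended the call (adjusted p = 0.058 each time). Myh8, the perinatal chain, had 1, 12 and 0 control counts and 201, 184 and 199 APPswe counts, with a log2 fold change of 5.43 ± 0.75 (adjusted p = 0.0045), or 8.26 ± 0.36 without control replicate 2. Myh7, the slow chain that the heart also uses, lies on chromosome 14 and had 0, 8 and 0 control counts and 275, 273 and 280 APPswe counts. Its log2 fold change of 6.61 ± 0.72 (adjusted p = 0.0020) was the largest of all members tested. Against the floor of 3 counts per library, Myh7 was at least 90.2-fold higher in APPswe than in control replicates 1 and 3, where no read was seen.

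The other fast chains were barely present. Myh2, the chain of type IIa fibers, had 0 counts in each control library and 1, 3 and 2 in APPswe, at or under the floor in both groups. Myh4, the chain of type IIb fibers, had 0, 4 and 0 counts in control and 4, 6 and 12 in APPswe. Neither passed the filter. Myh1, Myh2, Myh4 and Myh8 are near-identical along part of their length. In their longest annotated transcripts, 26.1%, 26.7%, 18.6% and 19.9% of all 50-base windows were found in another of the 6 chains, against 3.66% for Myh3 and 0.21% for Myh7, so reads may have been split among the first 4. The counting rule for such reads is not given in the sources used here.

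Per length, the myosin heavy chains of APPswe libraries were a mixture. Of the summed FPKM of the 6 chains, Myh1 made up 37.4% ± 0.54 (SD, n = 3), Myh3 25.6% ± 0.52, Myh7 21.5% ± 0.38 and Myh8 14.9% ± 0.61. Myh4 added 0.58% ± 0.33 and Myh2 0.16% ± 0.08. The APPswe libraries therefore held the embryonic and perinatal chains together with 1 slow and 1 fast chain, and the order Myh1, Myh3, Myh7, Myh8 was the same in each library with no overlap between neighbors. Control replicates 1 and 3 had 8 and 10 reads over the 6 chains, too few for shares. Control replicate 2 had 83, of which Myh3 took 42.2% of reads, not per length (exact 95% binomial interval 31.4% to 53.5%), against 25.0% to 26.0% of the reads in the APPswe libraries. Such intervals cover counting error alone.

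**Figure D3:**
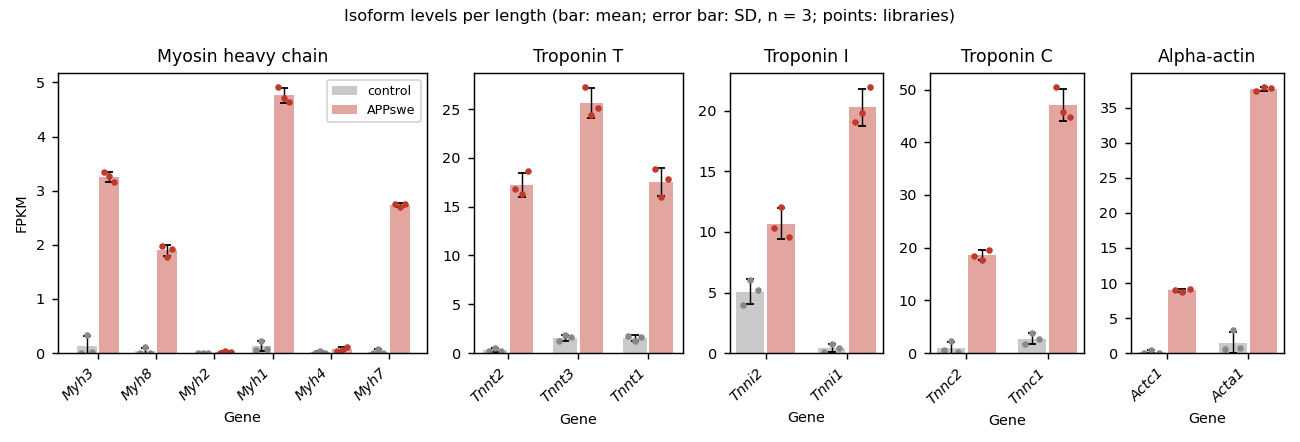
FPKM of the isoforms of 5 contractile families in control (gray) and APPswe (red) libraries. Bars are means of 3 libraries, error bars SD and points libraries, each panel with its own linear axis from 0. Myh2 and Myh4 stay near 0 while Myh1, Myh3, Myh7 and Myh8 rise to between 1.78 and 4.92 FPKM in APPswe libraries.

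Myosin light chains sit on the neck of the motor. Myl1, the essential light chain of fast muscle, had 1, 31 and 1 counts in control and 504, 454 and 446 in APPswe, with a log2 fold change of 5.38 ± 0.84 (adjusted p = 0.0067), or 8.68 ± 0.25 without control replicate 2. Mylpf, the fast regulatory light chain, had 25, 35 and 18 control counts and 403, 379 and 397 APPswe counts, with a log2 fold change of 3.89 ± 0.23 (adjusted p = 0.00041). The 2 groups were far apart for both genes. Myl4, the embryonic and atrial light chain, was already present in control cells, with 44, 43 and 47 counts, and reached 247, 261 and 259 counts in APPswe cells (log2 fold change 2.49 ± 0.13, adjusted p = 0.00030). Counts per FPKM imply a transcript length of 1.05, 0.721 and 1.06 kb for Myl4 in control and of 0.656 to 0.667 kb in APPswe libraries, so that its FPKM rose by more than its counts. The slow and cardiac chains stayed low. Myl2 had 3, 3 and 5 counts in control and 10, 5 and 3 in APPswe. Myl3 had 0 counts in all control libraries and 1, 3 and 0 in APPswe, and neither gene passed the filter. In FPKM the slow heavy chain Myh7 reached 2.73 ± 0.04 (SD, n = 3) in APPswe, against 0.863 ± 0.527 for Myl2 and 0.117 ± 0.132 for Myl3.

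The M-band links thick filaments at their middle, and myosin-binding proteins ring them. Myom2 and Myom3, myomesins of fast and intermediate fibers, rose from 4 to 8 and from 2 to 6 counts per control library to 103 to 127 and 42 to 55 in APPswe (log2 fold changes 4.24 ± 0.28 and 3.53 ± 0.36). Myom1, the myomesin shared by all striated muscle, behaved otherwise: its counts were 182, 16 and 158 in control and 194, 210 and 179 in APPswe. Control replicate 2 was low, the rest were close together, and the log2 fold change was 0.68 ± 0.69 (adjusted p = 0.51), or 0.17 ± 0.12 without that library. Mybpc1, the slow myosin-binding protein C, had 0, 9 and 0 counts in control and 107, 95 and 122 in APPswe (log2 fold change 5.10 ± 0.85, adjusted p = 0.0083), and Mybph rose as well (4.93 ± 0.42). Without APPswe replicate 3 the adjusted p of Mybpc1 was 0.051. Against control replicates 1 and 3, which held no read of it, Mybpc1 was at least 35.3-fold higher at the floor of 3 counts per library. The fast counterpart Mybpc2 had 0, 1 and 0 counts in control and 1, 4 and 1 in APPswe. It did not pass the filter, and its ratio of 5.92 had an exact counting interval of 0.718 to 272.

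In the thin filament, 11 of 13 members were called higher, or 13 without control replicate 2, and all 13 had no overlap between the groups. Over all genes tested, 3.74% were called higher, or 4.87% without control replicate 2, and 22.8% were higher without overlap. Of the 13, 7 passed the filter through the APPswe libraries alone, so their calls and order are a description. Acta1, skeletal alpha-actin, had 12, 72 and 15 counts in control and 786, 815 and 809 in APPswe, with a log2 fold change of 4.58 ± 0.58 (adjusted p = 0.0034) and of 5.86 ± 0.14 without control replicate 2. Actc1, the cardiac alpha-actin that developing skeletal muscle also uses, rose from at most 10 counts to between 184 and 191 (5.49 ± 0.60). Per length, Acta1 made up 80.8% ± 0.44 (SD, n = 3) of the pair in APPswe. No 50-base window was shared between the longest transcripts of these alpha-actins or with those of the smooth muscle actins Acta2 and Actg2. Neb, which encodes nebulin and runs along the thin filament, had 3, 11 and 10 control counts and 215, 207 and 175 APPswe counts (log2 fold change 4.60 ± 0.36). Leiomodins nucleate actin filaments. Lmod3 rose from at most 4 to between 37 and 44 counts, and Lmod2 had 0, 3 and 0 counts in control and 32, 13 and 17 in APPswe, a ratio of 20.4 with an exact counting interval of 6.66 to 101. The call of Lmod2 was lost in each fit that left out a library other than control replicate 2, with adjusted p between 0.053 and 0.082. Without control replicate 2 it was at least 6.76-fold higher at the floor.

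Troponin is the calcium switch of the thin filament. Of the tropomyosin-binding troponins T, the fast Tnnt3 had 17, 30 and 25 control counts and 371, 344 and 349 APPswe counts (log2 fold change 3.86 ± 0.20, adjusted p = 0.00030). The slow Tnnt1 had 25, 17 and 23 and then 250, 218 and 245 (3.43 ± 0.19, adjusted p = 0.00035). The cardiac and embryonic Tnnt2 had 3, 9 and 4 and then 266, 269 and 306 (5.66 ± 0.32, adjusted p = 0.00035). All 3 were thus higher by a factor well beyond the spread of the libraries. Their shares of troponin T FPKM in APPswe were 42.4% ± 1.47 for Tnnt3, 29.1% ± 0.86 for Tnnt1 and 28.6% ± 1.80 for Tnnt2 (SD, n = 3), and the last pair overlapped.

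Troponin I blocks the actin-myosin contact at rest, and here the isoforms differed. The slow and developmental Tnni1 had 1, 12 and 6 counts in control and 270, 287 and 318 in APPswe (log2 fold change 5.48 ± 0.48, adjusted p = 0.0011). The fast Tnni2 had 33, 52 and 44 counts in control and 82, 99 and 78 in APPswe, with a log2 fold change of 0.98 ± 0.22 that lay just under the threshold of 1 (adjusted p = 0.0226). Without control replicate 2 it was 1.14 ± 0.20 and called. Tnni2 made up 98.3%, 88.5% and 92.5% of troponin I FPKM in the control libraries and 35.1%, 37.9% and 30.4% in APPswe, so that Tnni1 was the main isoform in each APPswe library and Tnni2 in each control library.

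Troponin C binds the calcium. The slow and cardiac Tnnc1 had 14, 33 and 23 counts in control and 399, 372 and 362 in APPswe (log2 fold change 3.99 ± 0.27, adjusted p = 0.00052). The fast Tnnc2 had 4, 18 and 1 and then 137, 135 and 148 counts (4.15 ± 0.66, adjusted p = 0.0070). Tnnc1 made up 71.7% ± 1.82 (SD, n = 3) of troponin C FPKM in APPswe. Tpm2, beta-tropomyosin, was the most abundant member per length in both groups. It had 2489, 4339 and 2729 counts in control and 5584, 5783 and 6094 in APPswe, with a log2 fold change of 0.85 ± 0.20 (adjusted p = 0.0274), under the threshold, and of 1.13 ± 0.07 without control replicate 2. The groups did not overlap, though control replicate 2 reached 74.8% of the APPswe mean.

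At the Z-disc, 8 of 9 members were called higher with or without control replicate 2. Of the 9 tested, 6 passed the filter through the APPswe libraries alone, so their calls are a description. Ttn, titin, the giant protein that spans from Z-disc to M-band, had 3, 16 and 4 counts in control and 508, 438 and 431 in APPswe (log2 fold change 5.86 ± 0.46, adjusted p = 0.00081). Spread over its long transcript, these reads came to 0.307 ± 0.029 FPKM (SD, n = 3), which ranked 49 of the 57 members per length. Des, desmin, the intermediate filament that ties myofibrils together, had 22, 35 and 20 control counts and 318, 338 and 340 APPswe counts (3.67 ± 0.22, adjusted p = 0.00041). Ldb3, a PDZ and LIM protein of the Z-disc, had 35, 40 and 35 counts and then 165, 159 and 145 (2.07 ± 0.15, adjusted p = 0.00074). For all 3 genes the groups were well separated. The control libraries lay close together for Ldb3, while control replicate 2 was the highest control for Ttn (6.96 ± 0.23 without it). The fast alpha-actinin Actn3 had 23, 38 and 28 control counts and 91, 80 and 87 APPswe counts (1.51 ± 0.23, adjusted p = 0.0060), and the general muscle alpha-actinin Actn2 rose from at most 9 counts to between 92 and 134 (4.97 ± 0.75). Tcap, telethonin, which caps titin, had 1, 1 and 0 counts and then 35, 50 and 38, a ratio of 60.6 with an exact counting interval of 16.4 to 506. Xirp1 was called as well. Calsarcins tether signaling proteins to the Z-disc. The fast Myoz1 had 7, 8 and 5 counts in control and 23, 27 and 12 in APPswe (1.59 ± 0.41, adjusted p = 0.0355), and the slow Myoz2 had 5, 4 and 8 and then 10, 10 and 12 (0.88 ± 0.38, adjusted p = 0.14). The call of Myoz1 was lost with DESeq2 (adjusted p = 0.070) and on leaving out control replicate 1 or 3 or APPswe replicate 1 or 2 (0.088 to 0.15).

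Calcium handling couples the membrane signal to contraction, and 7 of its 9 members were called higher with or without control replicate 2. All 7 passed the filter through the APPswe libraries alone, so their calls are a description. Cacna1s, the voltage sensor of the transverse tubule, had 0, 3 and 0 counts in control and 46, 43 and 53 in APPswe, a ratio of 46.7 with an exact counting interval of 15.6 to 229. Its partner Cacng1 had 0, 2 and 0 and then 29, 24 and 27 (ratio 39.4, interval 10.6 to 331). Without control replicate 2, which held the only control reads, they were at least 15.5-fold and 8.72-fold higher at the floor. Ryr1, the release channel that the sensor opens, had 7, 14 and 2 control counts and 103, 127 and 94 APPswe counts (log2 fold change 3.77 ± 0.50, adjusted p = 0.0038). Sensor and channel were thus both read in all APPswe libraries. Atp2a1, the fast calcium pump that refills the store, had 3, 12 and 3 counts and then 151, 187 and 162 (4.75 ± 0.45, adjusted p = 0.0014). Casq1 and Casq2, fast and slow calsequestrins that hold calcium in the store, rose with log2 fold changes of 4.99 ± 0.46 and 3.11 ± 0.23, Casq1 from 1, 8 and 3 counts to 133, 128 and 137. Cav3, the muscle caveolin, rose from between 2 and 6 counts to between 27 and 38. Trdn, triadin, did not pass the filter, with 1, 1 and 0 counts and then 7, 6 and 7 (ratio 9.86, interval 2.39 to 87.0).

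Jph2 was the exception. It encodes junctophilin 2, which anchors the reticulum to the surface membrane and is best known from heart and skeletal muscle. Its counts were 732, 537 and 876 in control and 406, 484 and 462 in APPswe, the only tested member that was lower. All APPswe libraries lay below all controls, with control replicate 2 closest to them. The log2 fold change was -0.69 ± 0.18 (adjusted p = 0.0397), smaller than the threshold of 1, and -0.86 ± 0.10 without control replicate 2. With Jph2 as its most abundant gene, the calcium class had a summed level of 42.6 ± 8.85 CPM in control and 59.0 ± 3.53 CPM in APPswe (SD, n = 3), a ratio of 1.39, against 11.7 for the thick filament and M-band class.

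**Figure D4:**
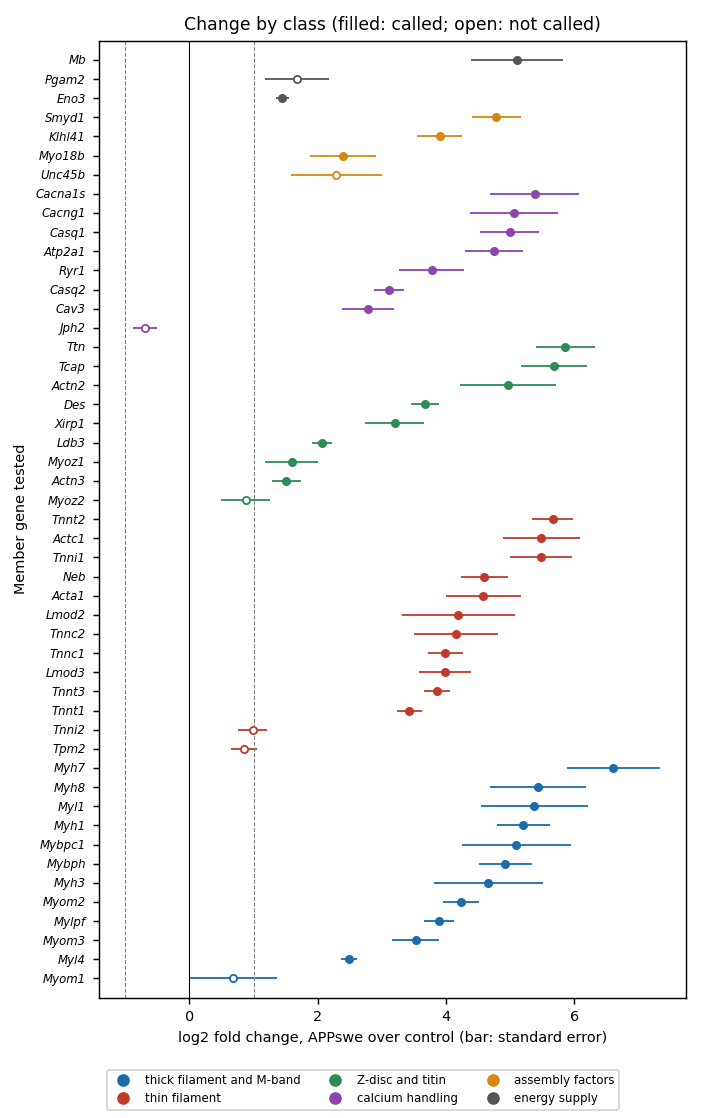
log2 fold change (APPswe over control) with its standard error for the 49 members tested, grouped by class. Filled points were called and open points were not, and dashed lines mark a log2 fold change of 1 in either direction. Jph2 is the one point below 0, and Myh7 at 6.61 lies farthest to the right.

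Assembly factors fold myosin and build sarcomeres, and 3 of 5 were called higher, or 4 without control replicate 2. The 4 tested all passed the filter through the APPswe libraries alone, so their calls are a description. Klhl41 had 4, 6 and 2 counts in control and 57, 70 and 60 in APPswe (log2 fold change 3.90 ± 0.35, adjusted p = 0.0011), and Smyd1, a myosin-associated methyltransferase, had 1, 3 and 1 and then 47, 53 and 50 (4.79 ± 0.38, adjusted p = 0.00085). Myo18b was called from lower counts, 1, 6 and 3 against 14, 21 and 20 (2.40 ± 0.52, adjusted p = 0.0199), and its call was lost on leaving out control replicate 3 or any APPswe library (0.063 to 0.096). Unc45b, the myosin chaperone, had 8, 0 and 4 counts in control and 20, 17 and 24 in APPswe. The groups did not overlap, but the adjusted p was 0.061, or 0.0045 without control replicate 2. Hspb3, a small heat shock protein of muscle, had 3, 1 and 3 counts and then 6, 4 and 12 and did not pass the filter.

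In energy supply 2 of 4 members were called higher, or 3 without control replicate 2. Mb, myoglobin, which stores oxygen in slow and oxidative fibers, had 1, 25 and 3 counts in control and 355, 327 and 342 in APPswe (log2 fold change 5.11 ± 0.72, adjusted p = 0.0047). Eno3, the muscle enolase, had 118, 128 and 122 control counts and 338, 345 and 338 APPswe counts (1.45 ± 0.10, adjusted p = 0.00060), the tightest of the calls. Pgam2, the muscle phosphoglycerate mutase, had 26, 5 and 14 and then 50, 54 and 44 counts (1.68 ± 0.50, adjusted p = 0.0528). It was not called unless control replicate 2 was left out (adjusted p = 0.0029). Ckm, muscle creatine kinase, an abundant transcript of mature fibers, had 0 counts in each control library and 7, 4 and 2 in APPswe, only 1.42 times the floor.

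Across fiber types, members of all 3 kinds were called. Of 13 fast isoforms, 10 were tested and 9 called higher, or 10 without control replicate 2. Of 9 slow isoforms, 7 were tested and 6 called, and all 5 developmental isoforms (Myh3, Myh8, Myl4, Actc1 and Tnnt2) were called, the slow and developmental counts being the same without control replicate 2. The share over all genes tested was 3.74%, or 4.87% without that library. Enough reads in both groups were held by Mylpf, Tnnt3, Tnni2 and Actn3 (fast), Tnnt1 and Tnnc1 (slow) and Myl4 (developmental). The other isoforms tested passed the filter through the APPswe libraries alone, so their calls are a description. Summed CPM rose from 9.76 ± 4.27 to 131 ± 2.70 for the fast list, from 4.29 ± 1.11 to 77.9 ± 2.26 for the slow list and from 4.02 ± 1.83 to 69.7 ± 1.68 for the developmental list (SD, n = 3), ratios of 13.4, 18.2 and 17.3. These ratios were not compared by a test. Members that stayed near the floor in APPswe were found among fast isoforms (Myh2, Myh4, Mybpc2) and slow ones (Myl2, Myl3).

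Per length, the order of members in APPswe libraries was led by Tpm2 at 242 ± 14.0 FPKM (SD, n = 3), followed by Tnnc1 at 47.1 ± 3.05, Mylpf at 45.5 ± 2.05 and Myl1 at 43.7 ± 3.45, which overlapped as neighbors. Acta1 followed at 37.7 ± 0.30, below all libraries of Myl1, then Tnnt3 at 25.6 ± 1.51 and Mb at 24.1 ± 1.41, which overlapped. In control libraries Tpm2 had 132 ± 42.7 FPKM and Jph2 10.1 ± 2.32, while Acta1 had 1.48 ± 1.51 and Myl1 0.977 ± 1.49. The most abundant contractile members of APPswe libraries were thus small thin-filament and light-chain proteins, with heavy chains at under 5 FPKM.

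On a list of 40 further muscle genes, 31 were tested, 18 called higher and 1 lower, against 3.74% and 3.60% of all genes tested. Without control replicate 2, 32 were tested, 23 called higher and 2 lower, against 4.87% and 6.58%. The 4 with the highest mean CPM, a scale that is not per length, were not called higher. Flnc, filamin C, was not called (log2 fold change 0.10 ± 0.21, adjusted p = 0.76), Cryab had -0.95 ± 0.34 (adjusted p = 0.088), called lower without control replicate 2 (-1.27 ± 0.08, adjusted p = 4.0e-07), and Fhl3 -0.27 ± 0.10 (adjusted p = 0.094). Ankrd1, a titin-associated stretch-response protein, was the one called lower with all libraries, from 1466, 797 and 1377 counts to 423, 439 and 471 (-1.47 ± 0.23, adjusted p = 0.0070).

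Of the 8 regulators of muscle formation listed, 5 were tested and 4 called higher, with or without control replicate 2. Over all genes tested, 3.74% were called higher, or 4.87% without control replicate 2. The 4 called had at most 5 counts in any control library and passed the filter through the APPswe libraries alone. Their counts are therefore a description. Myod1, the factor that commits cells to muscle, had 0, 3 and 0 counts in control and 37, 36 and 45 in APPswe (log2 fold change 5.11 ± 0.71, adjusted p = 0.0045), and Myog, which drives terminal differentiation, had 3, 5 and 2 and then 165, 165 and 174 (5.58 ± 0.28, adjusted p = 0.00030). The other calls were the fusion proteins Mymk and Mymx. Mef2c, the fifth gene tested, had 738, 912 and 699 counts in control and 662, 646 and 660 in APPswe, lower without overlap but not called (-0.27 ± 0.11, adjusted p = 0.12). Myf5 and Myf6 had at most 4 counts in any library and the satellite cell factor Pax7 at most 1. Summed over the 8 genes the range was 39.6 to 52.0 CPM in control and 53.9 to 56.6 CPM in APPswe, carried mostly by Mef2c, which cells outside muscle use too.

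Cardiac, smooth muscle and bone lineage markers were read beside these. Over all genes tested, 3.74% were called higher and 3.60% lower, or 4.87% and 6.58% without control replicate 2. Of 8 cardiomyocyte markers 7 had a row, their sum was 1.80 to 2.31 CPM in control and 4.20 to 5.68 in APPswe, and only Tnni3 was tested and called higher. Nkx2-5 was at 0 in all libraries, Nppa and Gata4 at no more than 1 count and Myh6, the adult heart chain, at no more than 2. Of 8 smooth muscle markers 7 were tested and 1, Cnn1, called higher, or 3 (Cnn1, Acta2 and Tagln) without control replicate 2, their sum being 1111 to 2228 CPM in control and 2552 to 2661 CPM in APPswe. Acta2, smooth muscle actin, had 11404, 27117 and 11682 counts in control and 28370, 29549 and 30189 in APPswe (log2 fold change 0.80 ± 0.33, adjusted p = 0.13), so control replicate 2 was near the APPswe libraries, and without it the log2 fold change was 1.32 ± 0.06 (adjusted p = 3.5e-08). The osteoblast sum over 12 genes was 11847 to 14078 CPM in control and 7510 to 7980 in APPswe. It was carried mostly by Spp1 and Col1a1. In this list Spp1 was called lower, Sp7 higher (1.98 ± 0.43, adjusted p = 0.0205) and the median log2 fold change was -0.12. Without overlap 4 were higher (Alpl, Pth1r, Runx2 and Sp7), where 22.8% of all genes tested were, and 1 was lower (Spp1). Leaving out control replicate 2 gave 1 osteoblast gene called higher (Sp7) and 4 lower (Bglap2, Dmp1, Phex and Spp1). The macrophage sum over 13 genes, carried mostly by Lyz2, was 18323 to 25434 and 12748 to 13813 CPM. The osteoclast sum over 8 genes was 158 to 290 in control and 719 to 731 CPM in APPswe. Of these genes 7 were tested and 4 called higher (median log2 fold change 3.10), or 5 without control replicate 2. The largest changes, of Mmp9 (5.83 ± 0.46) and Acp5 (5.09 ± 0.24), were within the range of the called muscle genes (1.45 to 6.61). The endothelial sum over 6 genes was 81.0 to 250 and 22.7 to 24.0 CPM. Of 5 tested 2 were called lower, or 6 of 6 without control replicate 2. The part of these markers in the differences of the muscle genes was not tested.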

How the data were processed

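Bulk RNA-seq libraries (n = 3 per genotype) were made from sorted tdTomato-positive skull bone cells with the SMARTER mRNA-Seq kit. Groups and replicate numbers came from the sample titles. The authors deposited read counts per gene, without normalization, and FPKM values, which they normalized for transcript length and mapped reads. The submitters' processing notes name GRCm38; the aligner and counting rule are not given in the sources used here. Deposited columns of the authors' own fold changes and p-values were not used, and 0 other per-sample columns were left unmapped. Blank FPKM cells were read as 0.

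Counts were tested with edgeR 4.0.16 (R 4.3.3; TMM scaling, filterByExpr, quasi-likelihood F-test, two-sided), fitted over all genes with Benjamini-Hochberg adjustment and checked on simulated data. Standard errors were derived from the F statistic. Alternatives used DESeq2 1.42.0, limma 3.58.1 on log2(FPKM + 1) and log2(FPKM + 0.1), other scalings and filters, the replicate block, the name style and each library left out. Ratios at low counts carry exact 95% counting intervals. Shares are of FPKM.

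The member genes and gene lists were chosen with earlier results of these data known. Any member could be named. Values in every library were given for the 4 members of highest mean CPM per class, all myosin heavy chains and troponins, members called lower, not called or not tested, and for other members where they completed a pair. The sequences are from RefSeq, build GRCm38.p6, and transcript windows from GENCODE.

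Chi-square per degree of freedom between libraries, where about 1 is counting noise, was lowest for APPswe replicates 2 and 3 (1.57) and 5.94 to 105 for the other pairs. This pair thus differed by little more than counting noise, and was kept as separate libraries.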

Additional observations from a re-analysis of the deposited data

How the results depend on the processing

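No member changed direction in any alternative, and 0 members were called lower in each of them. Of the 42 members called higher, 29 were called in every alternative that gave a value for them. Requiring at least 10 counts in every library left 10 members called higher and 3 of the further muscle genes, because it drops genes that the control libraries hold at few reads. On log2(FPKM + 1), where the pseudocount shrinks changes of low FPKM, limma called 7 of the further muscle genes, and 8 with no filter, and 11 members including Ttn, Neb and Ryr1 fell under the fold threshold. Leaving out each library in turn gave 38 to 46 members and 11 to 23 further muscle genes called higher. Without APPswe replicate 2 or 3, the most alike pair, 38 members were called. Myh3 was lost on leaving out any APPswe library (adjusted p = 0.058 each time) and Mybpc1 on leaving out APPswe replicate 3 (0.051). Myo18b, Myoz1 and Lmod2 were the least stable calls. As a share of CPM in place of FPKM, Tnni1 was 77.1% of troponin I and Tnnt3 40.7% of troponin T.

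Samples with the same replicate number did not all deviate together (correlations of 0.074, -0.036 and 0.158), so the numbers were not used to pair them. Pairs that shared a name style were all positive (0.074, 0.082, 0.116 and 0.158) and the others all negative (-0.220 to -0.036). What the styles stand for is not given in the labels. With the name style as a covariate, 40 members and 15 further muscle genes were called higher. The fit with the replicate block called 41 members and 16 further muscle genes higher; Lmod2 was lost (4.15, adjusted p = 0.065). With 3 libraries a group and few control reads, folds of the lowest members are limited by counting.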

Other observations

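The receptor of the neuromuscular junction was read in the same libraries. These genes are on the list of further muscle genes and were chosen after their values were seen. Chrna1, the alpha subunit of the muscle acetylcholine receptor, was read 2, 26 and 3 times in control and 171, 193 and 190 times in APPswe (replicates in the order 1, 2 and 3, log2 fold change 4.13 ± 0.72 (SE), edgeR adjusted p = 0.0099). Chrnd, the delta subunit, had 0, 2 and 0 counts and then 32, 34 and 37 (5.43 ± 0.66, adjusted p = 0.0029). Both were separated between groups, with control replicate 2 the highest control. Without that library the log2 fold change of Chrna1 was 6.11 ± 0.27. Chrng, the gamma subunit of the fetal receptor, had 0, 9 and 0 control counts and 71, 89 and 105 APPswe counts (4.81 ± 0.87, adjusted p = 0.0110). Chrne, the epsilon subunit that replaces it in the adult receptor, had 0, 0 and 1 counts and then 2, 0 and 2, under the floor, and was not tested. Chrnb1, the beta subunit, was present in control cells at 79, 48 and 81 counts and had 106, 115 and 130 in APPswe (0.73 ± 0.24, adjusted p = 0.071). Musk, the kinase that clusters the receptor, rose from 14, 7 and 13 to 58, 51 and 56 counts (2.24 ± 0.30, adjusted p = 0.0038).

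The fusion proteins of myoblasts were detected as well. Mymk had 0, 4 and 1 counts in control and 82, 110 and 111 in APPswe (5.80 ± 0.59, adjusted p = 0.0016). Mymx had 0 counts in each control library and 10, 16 and 12 in APPswe, and was called by edgeR (adjusted p = 0.0088). Of the receptor, Musk and fusion genes tested here, only Chrnb1 had enough reads in every control library. The others passed the filter through the APPswe libraries, so their counts and p-values are a description.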
